A study of Ipomoea batatas with 12 samples.

Results

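In sweet potato leaves, 52 of the 32301 genes in the deposited table were close to silent after water and were present at a low but clear level 1 h after at least 1 of 2 signalling peptides. IbPep1 was the peptide for most of them: 41 genes were on with IbPep1 only, 9 with IbHypSysIV only and 2 with both. The genes were chosen by their own levels, in CPM (the count of a gene scaled to a library total of 1000000 counts). A gene counted as near-silent when its mean over the 4 water libraries was under 0.5 CPM, and as on with a peptide when its mean there was at least 1.5 CPM with at least 3 of the 4 libraries at 1 CPM or more. In water 10012 genes were near-silent, so the 52 are a small share of those that could have been switched on. The levels in all 3 treatments were used for the choice, so what follows describes them without testing them. A gene placed in the class of 1 peptide met the rule with that peptide and not with the other, which does not show that it differed between the peptides.

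Hydroxyproline-rich systemins, the family that IbHypSysIV is named for, and plant elicitor peptides, the family of IbPep1, are short peptides that plants cut from larger precursor proteins. Released after wounding or attack, they are known for starting defence signalling, including the jasmonate pathway. Plant elicitor peptides are bound by receptor kinases at the cell surface. Many genes of inducible defence are kept at very low levels in undisturbed leaves, and for such a gene a small number of transcripts is already a large change in proportion. The table gives its genes as identifiers only and pairs none with a name or a product, so no role can be given to any of the 52. For the same reason lists of defence genes could not be counted, the leaf label could not be checked against marker genes, and no sequence is shown.

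Messenger RNA was sequenced from the 3rd leaves of cultivar Tainong 57, grown from scions for 3 weeks, after 1 h with water, IbHypSysIV or IbPep1, with 4 libraries each. No dose is stated in the labels. The source name reads IbPep1 for all 4 libraries of that group, but the treatment tag differs from it, with IbPep1 for replicate 1, IbPep2 for replicate 2, IbPep3 for replicate 3 and IbPep4 for replicate 4, and the titles carry the code P2. They were kept as IbPep1 by the source name, and whether the tag names other peptides cannot be told from the labels. Library totals ran from 16607188 to 25073251 counts, so that 1 CPM is 16.6 to 25.1 counts and 0.5 CPM is 8.30 to 12.5 counts. The members held 8 to 45 counts each over the 4 water libraries together, with a median of 31.5. These are whole leaves, in which a change in the number of cells of a type cannot be told apart from a change in RNA per cell.

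Before the members are described, 3 libraries need naming because they stand apart from their groups over all genes tested. Water replicate 3 correlated with the other water libraries at 0.937 to 0.951 (Pearson, log2 CPM) and with the IbPep1 libraries at 0.955 to 0.959, while other pairs of water libraries reached 0.985. IbHypSysIV replicate 4 correlated with its own group at 0.952 to 0.963, where other pairs of that group reached 0.978, and IbPep1 replicate 3 with its own at 0.955 to 0.964, where other pairs reached 0.983. Among the 52 genes, water replicate 3 was the highest water library for 32 (61.5%), against 44.5% of the 23193 genes tested and 38.6% of the 948 of them that were near-silent in water. IbHypSysIV replicate 4 was the highest of its group for 29 (55.8%, against 36.4% and 39.98%). IbPep1 replicate 3 was the highest for 25, at the share of all genes tested (48.1%, against 47.3% and 38.3%), and IbPep1 replicate 2 for another 18 (34.6%, against 15.1% and 22.7%). When the rule was applied to the other 9 libraries, asking for 2 of 3 libraries at 1 CPM, it chose 86 genes, 37 of the 52 among them. Of these 37, 6 came from the 9 on with IbHypSysIV only, 31 from the 41 on with IbPep1 only and 0 from the 2 on with both. Leaving out water replicate 3 alone gave 89 genes. The 3 libraries also deviated from their groups in a similar direction, by log2 CPM less the group mean over the genes tested. These deviations correlated at 0.481 between IbHypSysIV replicate 4 and IbPep1 replicate 3. Water replicate 3 correlated with these 2 at 0.397 and 0.261. The other pairs between groups ran from -0.479 to 0.406. What sets the 3 libraries apart was not tested.

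**Figure D1:**
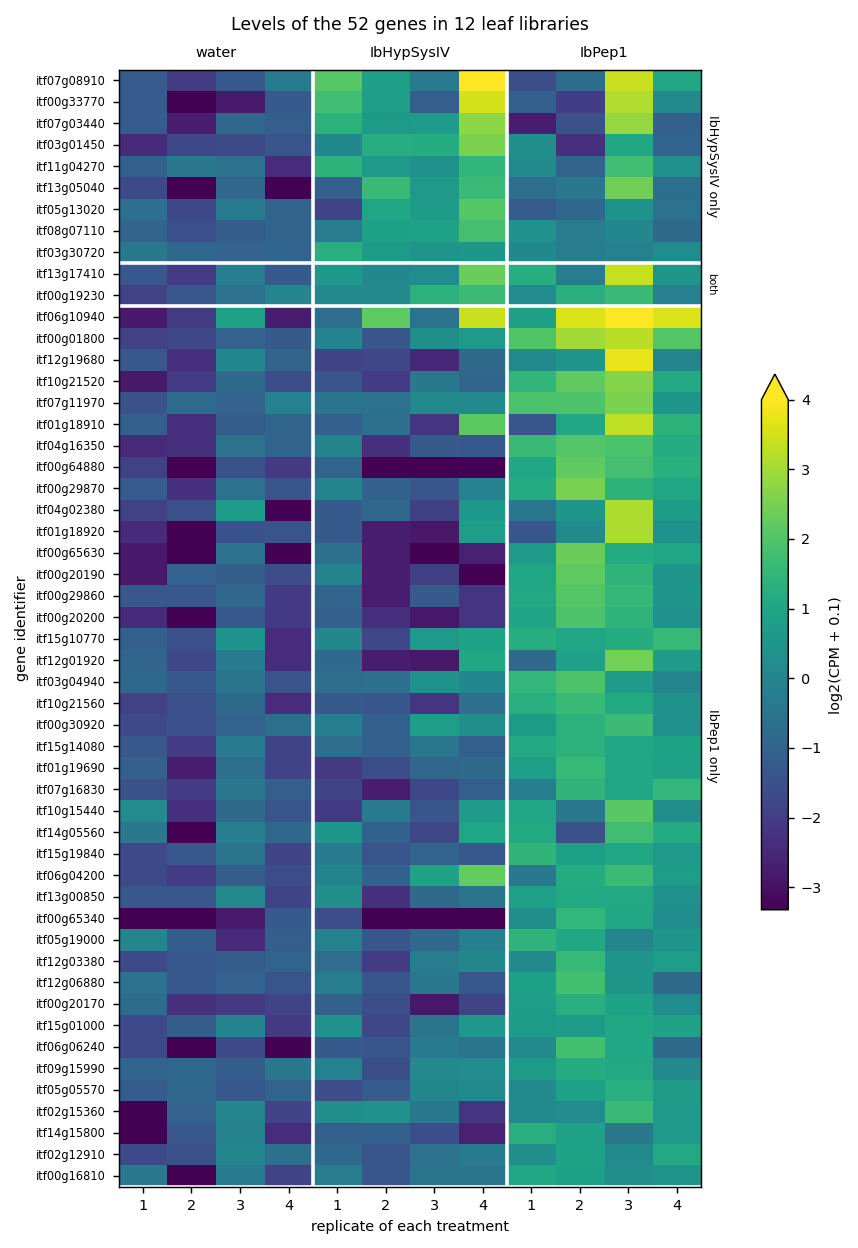
Level of each of the 52 genes (rows, by identifier, grouped by the peptide that met the rule) in each of the 12 libraries (columns, by treatment and replicate), as log2(CPM + 0.1), with values above the scale shown in its last colour. The rows of the 41 genes on with IbPep1 only are bright in the IbPep1 columns, and of the 9 genes on with IbHypSysIV only, 7 have their brightest IbPep1 column in replicate 3.

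The 41 genes on with IbPep1 only had group means of 1.51 to 45.8 CPM with IbPep1 (median 2.06). Their water means were 0.0911 to 0.495 CPM (median 0.330), and the ratio of the means ran from 3.15 to 92.7 with a median of 6.59. All 4 IbPep1 libraries were at 1 CPM or more for 26 of the 41, and 3 of 4 for the other 15. With IbHypSysIV the same genes had means of 0.0580 to 4.04 CPM (median 0.558). The median ratio of IbHypSysIV to water was 1.44, with 34 of the 41 means above the water mean. As the 41 were chosen for a low water mean, this follows in part from the choice. How many near-silent genes do the same was not counted. In 17 of the 41 the IbHypSysIV mean was itself under 0.5 CPM, so these were near-silent in both other treatments. At the other end, 2 of the 41 had an IbHypSysIV mean of at least 1.5 CPM and missed the rule there because fewer than 3 libraries reached 1 CPM.

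Named genes are the 2 in each class whose lowest library under the inducing peptide was highest. Where all libraries of that peptide lie above the others, this follows in part from that choice. For itf00g01800 the IbPep1 libraries held 3.95, 7.80, 9.29 and 4.03 CPM in replicates 1 to 4. The water libraries held 0.167, 0.198, 0.391 and 0.321 CPM, and the IbHypSysIV libraries 0.882, 0.290, 1.16 and 1.45 CPM. All IbPep1 libraries lay above all others, and the IbHypSysIV range overlapped the top of the water range. The means were 6.27 ± 2.70 CPM with IbPep1, 0.943 ± 0.493 with IbHypSysIV and 0.269 ± 0.105 with water (SD, n = 4 each).

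The other, itf04g16350, was the more even of the pair. Its IbPep1 libraries held 2.94, 4.03, 3.67 and 2.23 CPM, with a mean of 3.22 ± 0.799 (SD, n = 4). Water gave 0.0837, 0.0988, 0.565 and 0.412 CPM, and IbHypSysIV gave 0.882, 0.0967, 0.319 and 0.301 CPM. The water and IbHypSysIV libraries overlapped, and all IbPep1 libraries lay above both. The means were 0.290 ± 0.238 CPM in water and 0.400 ± 0.337 CPM with IbHypSysIV (SD, n = 4 each).

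The highest level of any member was in itf06g10940, picked out here after its values were seen. Its IbPep1 libraries held 1.69, 11.8, 157 and 12.2 CPM, with a mean of 45.8 ± 74.6 (SD, n = 4), which was 8.59 CPM without replicate 3. IbHypSysIV gave 0.510, 4.45, 0.558 and 10.7 CPM, and water gave 0.0418, 0.148, 1.74 and 0.0458 CPM. In each treatment the library that stands apart was the highest, and the IbPep1 and IbHypSysIV ranges overlapped. This gene alone made up 157 of the 295 CPM that the 41 genes summed to in IbPep1 replicate 3. The sums in IbPep1 replicates 1, 2 and 4 were 71.1, 121 and 76.6 CPM. In water the 41 summed to 11.7, 7.95, 23.8 and 10.8 CPM, and with IbHypSysIV to 24.0, 15.7, 21.0 and 47.4 CPM. The lowest IbPep1 library was thus above the highest of the other treatments, which follows in part from the choice of the 41.

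The 9 genes on with IbHypSysIV only had a median level under their peptide, 1.98 CPM, close to the 2.06 CPM of the 41 under theirs. In both classes the rule set a lowest mean of 1.5 CPM, so this closeness follows in part from the choice. Together with the limit on the water mean, the rule also set a lower bound on the ratios to water. Their IbHypSysIV means were 1.61 to 7.04 CPM against water means of 0.161 to 0.479 CPM (median 0.356), with ratios of 3.35 to 23.7 (median 10.2). All 4 IbHypSysIV libraries reached 1 CPM for 3 of the 9. The median ratio of the highest to the lowest library under the inducing peptide was 5.93 in the 9 and 2.93 in the 41. Replicate 4 was the highest IbHypSysIV library for 8 of the 9, and 3 or more times the next library for 2. Summed over the 9, the IbHypSysIV libraries held 17.1, 16.5, 11.96 and 60.0 CPM, while the water libraries held 1.93 to 3.44 CPM.

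By their means these 9 genes were also above water with IbPep1. Their IbPep1 means were 0.653 to 3.31 CPM (median 1.47), all 9 above the water mean, with a median ratio of 4.74. These genes were chosen for a low water mean, so this follows in part from the choice. The share among all near-silent genes was not counted. Every IbPep1 library lay above every water library in 3 of the 9, where 9.29% of all genes tested did. In 4 of the 9 the IbPep1 mean was at least 1.5 CPM, and the rule was missed there because fewer than 3 libraries reached 1 CPM. Replicate 3 was the highest IbPep1 library for 7 of the 9 and 3 or more times the next for 4. The 9 genes summed to 39.7 CPM in that library and to 5.88, 4.03 and 7.64 CPM in replicates 1, 2 and 4. Those 3 lie between the water libraries and the lowest IbHypSysIV library.

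Of the 2 named here, itf07g03440 shows this unevenness in full. Its IbHypSysIV libraries held 2.51, 1.499, 1.52 and 6.62 CPM (mean 3.04 ± 2.44, SD, n = 4, and 1.84 without replicate 4), and its water libraries 0.335, 0.0494, 0.435 and 0.367 CPM. With IbPep1 it held 0.0482, 0.252, 7.04 and 0.380 CPM. Replicates 1, 2 and 4 of IbPep1 thus lay within or just below the water range, and replicate 3 above every IbHypSysIV library.

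The second, itf03g30720, was the evenest of the class. It held 2.32, 1.499, 1.28 and 1.32 CPM with IbHypSysIV (mean 1.61 ± 0.486, SD, n = 4). With IbPep1 it held 0.963, 0.755, 0.821 and 1.09 CPM, and with water 0.669, 0.445, 0.391 and 0.412 CPM. In CPM the 3 treatments did not overlap, with IbPep1 between the others, but the gap between water and IbPep1 was small. Water replicate 1 held 16 counts and IbPep1 replicate 2 held 15, so their order rests on the library totals. This gene was the only one of the 9 in which every IbHypSysIV library lay above every IbPep1 library.

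Only itf00g19230 and itf13g17410 met the rule with both peptides. The IbHypSysIV libraries of itf00g19230 held 1.02, 1.02, 2.43 and 3.07 CPM and its IbPep1 libraries 1.06, 2.37, 2.94 and 0.807 CPM. Water gave 0.167, 0.296, 0.565 and 0.917 CPM. The means with the peptides were 1.89 ± 1.03 and 1.79 ± 1.02 CPM (SD, n = 4 each), within 1 SD of each other, and the lowest IbPep1 library fell below the highest water library. In itf13g17410 the values were 1.39, 0.967, 1.08 and 4.94 CPM with IbHypSysIV and 2.26, 0.755, 10.2 and 1.38 CPM with IbPep1. Its water libraries held 0.293, 0.148, 0.739 and 0.321 CPM, all below every peptide library. The nearest were water replicate 3 with 17 counts and IbPep1 replicate 2 with 15, so their order rests on the library totals. The means of itf13g17410 were 2.09 ± 1.90 CPM with IbHypSysIV, or 1.15 without replicate 4, and 3.66 ± 4.43 CPM with IbPep1, or 1.47 without replicate 3 (SD, n = 4 each). Neither gene met the rule with both peptides once IbHypSysIV replicate 4 or IbPep1 replicate 3 was left out, after which 0 genes of the table did.

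**Figure D2:**
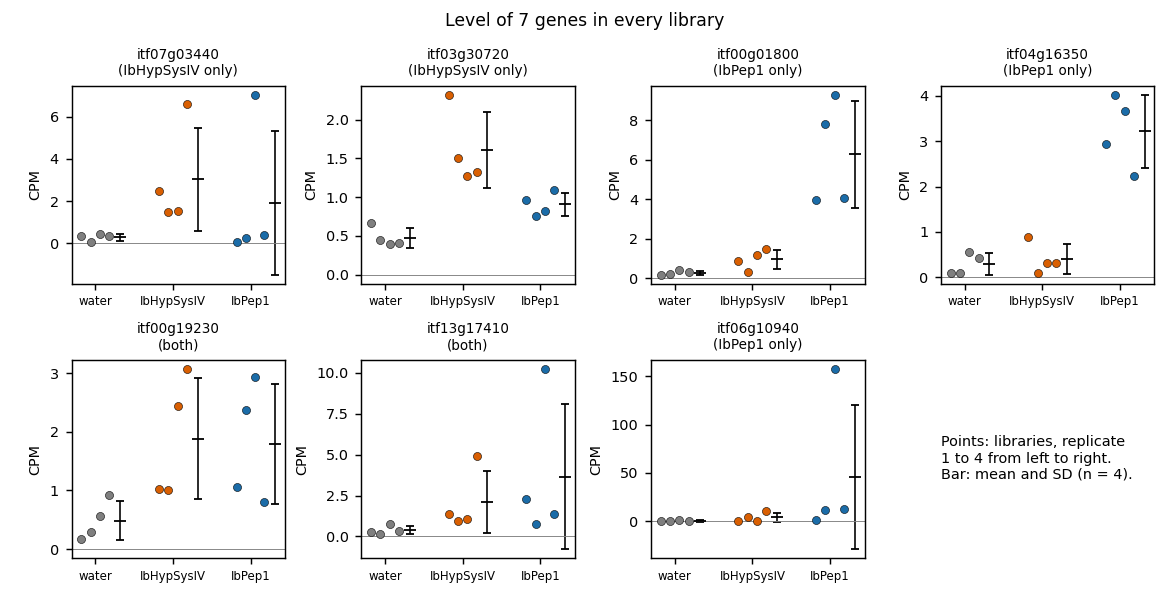
Level in CPM (vertical axes, linear, a scale for each gene) of the 6 named genes and of itf06g10940 in the 4 libraries of each treatment; points are libraries and bars the mean with 1 SD. The IbPep1 points of itf04g16350 lie between 2.23 and 4.03 CPM, while those of itf06g10940 are spread from 1.69 to 157 CPM.

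The levels with the 2 peptides can be set against each other gene by gene. The ratio of the IbPep1 mean to the IbHypSysIV mean had a median of 4.55 over the 41 genes on with IbPep1 only, and 40 of the 41 were higher with IbPep1. For the 9 genes on with IbHypSysIV only, the ratio of the IbHypSysIV mean to the IbPep1 mean had a median of 1.77, from 1.12 to 3.07. Every IbPep1 library lay above every IbHypSysIV library for 26 of the 41, where 11.5% of all genes tested did. Every IbHypSysIV library lay above every IbPep1 library for 1 of the 9, where 10.5% of all genes tested did. Members were chosen for a high level in 1 of these groups, so these counts follow in part from the choice.

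**Figure D3:**
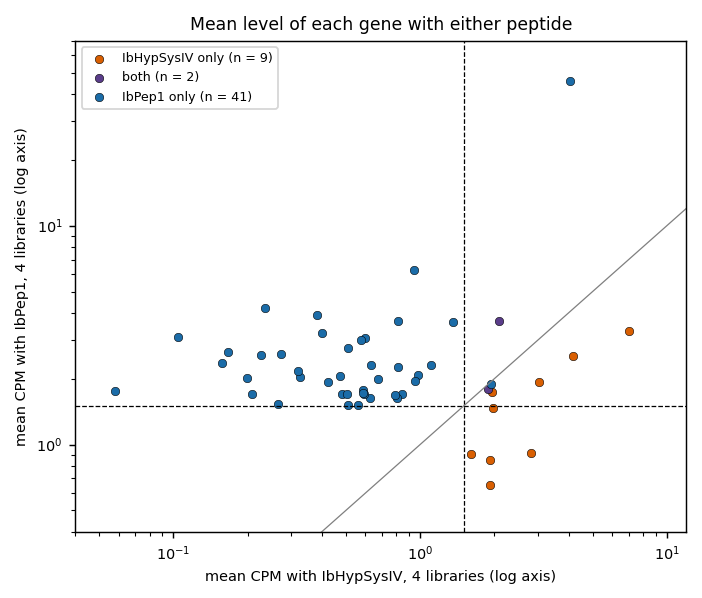
Mean CPM of each of the 52 genes with IbHypSysIV (horizontal, log axis) and with IbPep1 (vertical, log axis), 4 libraries each, coloured by the peptide that met the rule. The 9 genes on with IbHypSysIV only reach down to 0.653 CPM with IbPep1, while genes on with IbPep1 only reach down to 0.0580 CPM with IbHypSysIV.

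All 52 genes passed the filter on low counts and were among the 23193 tested in a fit of all 12 libraries (edgeR's quasi-likelihood test, Benjamini-Hochberg adjustment over all genes tested, adjusted p under 0.05). They passed because they were high in some group, and the comparisons with water share both the water libraries and the values that chose the members, so nothing is read from these counts. In IbPep1 against water, 33 of the 41, 1 of the 2 and 0 of the 9 were called higher, where 5.51% of all genes tested were. For the 9 genes on with IbHypSysIV only, 8 had an unadjusted p under 0.05 in that comparison and DESeq2 called 4. In IbHypSysIV against water, 3 of the 9, 1 of the 41 and 0 of the 2 were called higher, where 1.22% of all genes were. Both of the 2 had an unadjusted p under 0.05 there, and DESeq2 called both. DESeq2 called 13 of the 52 higher with IbHypSysIV, against 4 in edgeR. For counts by unadjusted p, by DESeq2 or with a library left out, here and below, no share of all genes is given to set them against. With 1 library left out, edgeR called 0 to 8 of the 52 in that comparison, with 0 when replicate 2 or 4 of water or replicate 3 of IbHypSysIV was the one left out, 1 without water replicate 1, 2 without IbHypSysIV replicate 4 and 8 without IbPep1 replicate 3. In IbPep1 against water the 34 called in all became 20, 16 and 18 without water replicates 1, 2 and 4, and 21 without IbPep1 replicate 2. Every IbPep1 library lay above every water library for 35 of the 52 (9.29% of all genes tested), and every IbHypSysIV library above every water library for 10 of the 52 (5.07%).

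In IbPep1 against IbHypSysIV, 23 of the 41 genes were called higher, where 6.70% of all genes tested were. Without IbHypSysIV replicate 3 this count was 15. Lower with IbPep1 were 0 of the 9 genes on with IbHypSysIV only, where 9.14% of all genes tested were called lower. In that direction 4 of the 9 had an unadjusted p under 0.05 in edgeR, and DESeq2 called 1.

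A level that the choice did not use was had by leaving out each library in turn, choosing genes from the other 11 by the same rule (2 of 3 libraries at 1 CPM in the shortened group), and reading those genes in the library left out. Genes so chosen as on with IbPep1 only were at 1 CPM or more in the left-out IbPep1 library for 33 of 56, 32 of 39, 32 of 41 and 38 of 65 in replicates 1 to 4. In the left-out water library the counts were 2 of 40, 0 of 34, 35 of 70 and 3 of 42, and in the left-out IbHypSysIV library 4 of 39, 2 of 40, 6 of 40 and 17 of 43. The share was 58.5% to 82.1% in the IbPep1 libraries and at most 50% in the others. Water replicate 3 had that 50%, with a median of 0.978 CPM.

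Genes chosen as on with IbHypSysIV only gave 4 of 12, 9 of 13, 7 of 14 and 7 of 7 at 1 CPM or more in the left-out IbHypSysIV libraries. In the left-out water libraries the counts were 1 of 13, 0 of 9, 4 of 14 and 0 of 8. In the left-out IbPep1 libraries they were 2 of 6, 0 of 6, 9 of 11 and 3 of 8. IbPep1 replicate 3, with a median of 3.28 CPM, was above replicates 1, 2 and 3 of IbHypSysIV in its share, and IbHypSysIV replicate 4, with a median of 5.78 CPM, held all of its 7 genes at that level. The sets overlap from 1 library to the next, so these 12 readings are not independent.

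**Figure D4:**
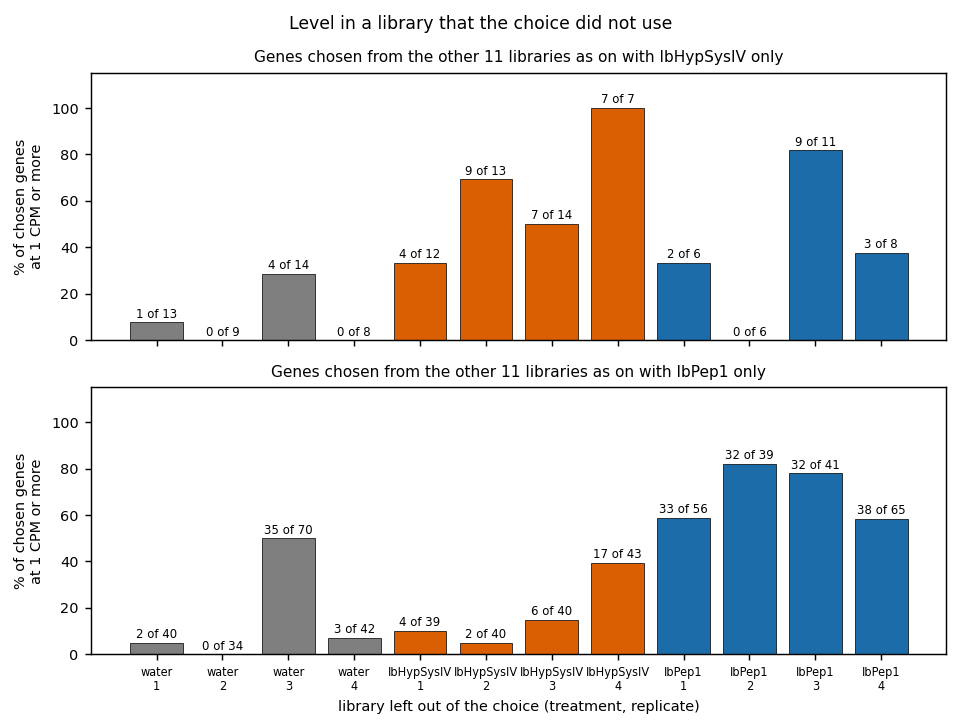
Share (percent, from 0) of the genes chosen from the other 11 libraries that reached 1 CPM in the library left out (horizontal axis), for genes chosen as on with IbHypSysIV only (top) and with IbPep1 only (bottom); the counts stand above the bars. The 4 IbPep1 bars of the lower panel are the highest in it, and water replicate 3 stands at 35 of 70.

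Applying the rule between every ordered pair of treatments gave the scale of these numbers. From near-silent in water, 11 genes were on with IbHypSysIV and 43 with IbPep1. From near-silent with IbHypSysIV, 5 genes were on in water and 35 with IbPep1, 17 of those being members. From near-silent with IbPep1, 23 genes were on in water and 20 with IbHypSysIV. The count of 11 from water to IbHypSysIV is thus lower than that of 23 from IbPep1 to water.

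The identifiers are not spread evenly. Those starting with itf00 made up 13 of the 52 members and 11 of the 41 on with IbPep1 only (26.8%). They made up 5.19% of all genes, 9.24% of those near-silent in water and 8.12% of the 948 near-silent genes that were tested. The labels do not say what the prefix stands for. The prefix was singled out after the members were seen, so the comparison is a description.

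The 11 itf00 genes differed from the other 30 in several of these counts and not in others. All 4 IbPep1 libraries were at 1 CPM or more in 11 of 11, against 15 of 30. Every IbPep1 library lay above every water library in 11 of 11 against 20 of 30, and above every IbHypSysIV library in 10 of 11 against 16 of 30. Of all genes tested, 9.29% and 11.5% did so. Both sets were chosen for a high IbPep1 level, so these counts follow in part from the choice. The ratio of the highest to the lowest IbPep1 library was 1.76 to 3.37 among the 11 (median 2.66) and 1.33 to 93.3 among the 30 (median 3.28), where the upper end is itf06g10940. The median ratio of the highest to the next IbPep1 library was 1.39 among the 11 and 1.38 among the 30. The highest IbPep1 library was replicate 2 in 8 of the 11 and 10 of the 30, and replicate 3 in 2 of the 11 and 14 of the 30. The highest IbHypSysIV library was replicate 1 in 9 of the 11 and 5 of the 30, and replicate 4 in 1 of the 11 and 18 of the 30. The median ratio of IbPep1 to water was 10.2 among the 11 and 5.81 among the 30, while that of IbHypSysIV to water was 1.10 and 1.67. Without the 3 libraries that stand apart, 11 of 11 and 20 of 30 still met the rule with at least 1 peptide.

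**Figure D5:**
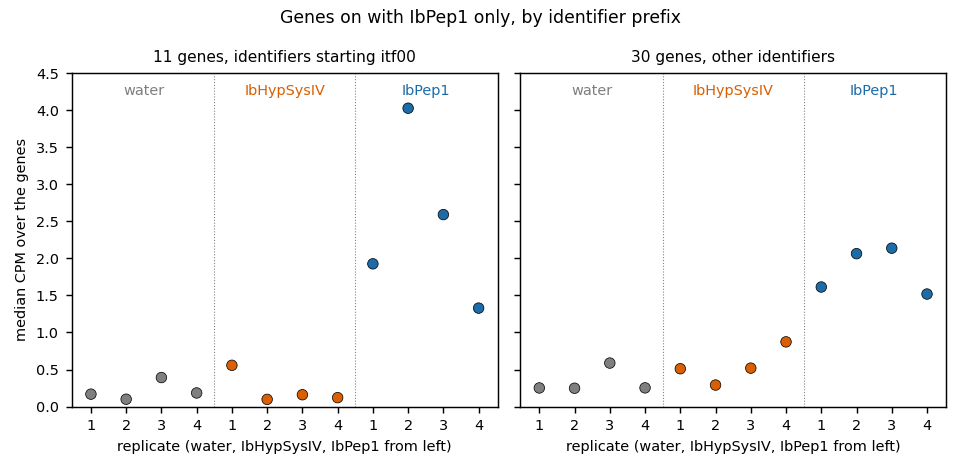
Median CPM (vertical axis, linear from 0) over the 11 genes on with IbPep1 only whose identifiers start with itf00 (left) and over the other 30 (right), in each of the 12 libraries (horizontal, by treatment and replicate). In both panels all 4 IbPep1 medians lie above all water and IbHypSysIV medians, which follows in part from the choice of these genes.

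Members also sat next to each other in identifier order. Among the 52, 9 fell into 4 runs whose identifier numbers lay within 40 of each other, and all 9 were on with IbPep1 only, as were 41 of the 52. How often other genes form such runs was not counted. A run of 3 itf00 genes took 3 consecutive rows of the table, and their IbPep1 means were 1.70 ± 0.508, 2.59 ± 1.37 and 2.36 ± 1.10 CPM (SD, n = 4 each). A pair of itf00 genes had means of 2.57 ± 1.14 and 3.08 ± 1.76 CPM, and in both runs replicate 2 was the highest IbPep1 library for every gene. A pair under itf01 had a different profile, with 0.289, 2.01, 9.67 and 2.56 CPM in the first gene and 0.289, 1.01, 8.47 and 1.23 CPM in the second, both highest in replicate 3. The last pair, under itf10 spanning 4 rows of the table, was mixed, with 2.75, 4.53, 6.13 and 2.14 CPM in the first gene and 2.36, 2.97, 2.07 and 1.23 CPM in the second. The highest IbPep1 library was thus the same for all genes of a run in 3 of the 4 runs. Over the 41 genes it was replicate 2 for 18 and replicate 3 for 16, so a shared highest library is common among them. Whether the genes of a run are near-identical copies between which reads were divided was not tested, since no sequence was at hand.

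The thresholds cut through a continuous range. For IbPep1 the 2 members nearest the mean of 1.5 CPM were both at 1.51 CPM and the 2 genes just outside at 1.49 and 1.47 CPM. For IbHypSysIV the nearest inside were 1.61 and 1.89 CPM and the nearest outside 1.33 and 1.27 CPM. On the water side of the IbPep1 rule the nearest inside were 0.495 and 0.494 CPM and the nearest outside 0.501 and 0.502 CPM. On that of the IbHypSysIV rule they were 0.486 and 0.479 CPM inside and 0.520 and 0.524 CPM outside. A further 26 near-silent genes had an IbPep1 mean of at least 1.5 CPM without 3 libraries at 1 CPM, and 6 had such a mean with IbHypSysIV. Of the 52 members, 25 met the rule with at least 1 peptide whichever of the 12 libraries was left out. They were 5 of the 9, 19 of the 41 and 1 of the 2, though neither of the 2 met it with both peptides in every case. Near-silent did not mean without reads, since a count of 0 occurred in 17 of the members' values in water, 8 with IbHypSysIV and 0 with IbPep1. In 47 of the 52 no water library reached 1 CPM, and in the other 5, all on with IbPep1 only, water replicate 3 did so in 4 genes and replicate 1 in 1.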

How the data were processed

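The authors deposited 1 table of raw counts per gene for 12 libraries, whole numbers not normalised. The submitters' processing notes list HISAT2 (2.0.5) for this series, with HTSeq (0.6.1) and DESeq2 (1.22.2). For genome build, annotation and strand setting, nothing was given in the sources used here. Reads of overlapping and antisense genes therefore cannot be separated. The labels' protocols name both a NEBNext Ultra and a SMARTER kit, without saying which library used which. Of 32301 identifiers, 0 matched a reference gene table of 175826 rows (IBA_r1.0).

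CPM was computed from the deposited counts and column totals. A floor of 3 counts is 0.120 to 0.181 CPM and covers counting error only. The members, classes and comparisons were chosen with earlier results of these data known. Named genes are the first 2 of each class by the lowest CPM among the libraries of the inducing peptide (for both, of the 8 libraries). Groups come from the source names, and replicates are numbered in accession order and were not paired. Deviations of libraries that share a title number correlated at -0.076 to 0.14, and those of other pairs between groups at -0.479 to 0.481. Whether a shared title number marks a pairing cannot be told from these values. The labels do not say that replicates are separate plants, so the p-values reflect library-to-library spread that may be technical.

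The fit used edgeR 4.0.16 (R 4.3.3) with TMM scaling and filterByExpr, which removed 9108 genes, 2916 of them without a count. It held the 3 groups in 1 model and adjusted over all 23193 genes tested; DESeq2 1.42.0 was an alternative. The procedure was tested on simulated data. Other alternatives were the thresholds, scaling, median for mean, the filter, the samples fitted and leaving out libraries.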

Additional observations from a re-analysis of the deposited data

Results flagged for a closer look

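In groups of 4 libraries, a highest or lowest library far from the other 3 (by Dixon's gap over range) was looked for in 30 sets of values, the named genes and the class sums in each treatment, and 8 were found. Chance gives about 1 in 20 for sets not chosen by their values. That rate does not apply here, since the genes were chosen by these values, itf06g10940 (2 of the 8) for its high level, and the genes and sums share libraries. In IbPep1 replicate 3 the level of itf07g03440 was 7.04 CPM, that of itf13g17410 was 10.2 CPM and that of itf06g10940 was 157 CPM. In the same library the 9 genes on with IbHypSysIV only summed to 39.7 CPM and the 2 genes on with both to 13.2 CPM. In IbHypSysIV replicate 4 the level of itf13g17410 was 4.94 CPM and the 9 genes summed to 60.0 CPM. In water replicate 3 the level of itf06g10940 was 1.74 CPM. All 8 are high values, and they fall in the 3 libraries that stand apart over all genes. The cause was not tested.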

How the results depend on the processing

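The number of members depended most on the thresholds. In the order all, on with IbHypSysIV, on with IbPep1 and on with both, the counts of 52, 11, 43 and 2 became 13, 3, 10 and 0 with water under 0.25 CPM, and 317, 107, 248 and 38 with water under 1 CPM. They became 89, 18, 76 and 5 with a treated mean of at least 1 CPM, 13, 3, 10 and 0 with at least 3 CPM, and 30, 4, 26 and 0 with 4 of 4 libraries at 1 CPM. TMM scaling, DESeq2 size factors and the median for the mean moved none of the 4 by over 1.5 times in size, but the genes changed in part. Of the 52, TMM scaling kept 51, DESeq2 size factors 48 and the median 42. The median chose 59 in all, and kept 9 of the 11, 34 of the 43 and 1 of the 2. Leaving out each library in turn gave 45 to 89 in all, 7 to 19 with IbHypSysIV, 36 to 75 with IbPep1 and 0 to 5 with both. Without water replicate 3 the counts were 89, 19, 75 and 5. On with IbHypSysIV were 17 genes without its replicate 3 and 7 without its replicate 4, and on with IbPep1 were 68 without its replicate 4. On with both were 0 without IbHypSysIV replicate 4 or IbPep1 replicate 3, 4 without IbHypSysIV replicate 1 and 5 without IbPep1 replicate 1 or 2. Without the 3 libraries that stand apart, an alternative chosen after seeing the data, 86 genes were on in all and 74 with IbPep1.

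Members called in IbHypSysIV against water (4) numbered 13 in DESeq2 and 0 to 8 with a library left out (the lowest without water replicate 2 or 4 or IbHypSysIV replicate 3, the highest without IbPep1 replicate 3). Those called in IbPep1 against water (34) numbered 16 to 40 with a library left out, the lowest without water replicate 2. Those called in IbPep1 against IbHypSysIV (23) numbered 15 to 27, the lowest without IbHypSysIV replicate 3. With a replicate block on the title numbers, which are not known to pair the libraries, the calls were 0, 41 and 6 in that order. The title numbers of water replicate 3, IbHypSysIV replicates 3 and 4 and IbPep1 replicate 4 occur once each. In that fit these libraries thus added nothing to the comparisons, which rested on fewer libraries per group. The cause of these moves was not tested. Without replicate 4 the IbHypSysIV means of itf07g03440 and itf13g17410 went from 3.04 to 1.84 and from 2.09 to 1.15 CPM, and without replicate 3 the IbPep1 means of itf13g17410 and itf06g10940 went from 3.66 to 1.47 and from 45.8 to 8.59 CPM. Medians in place of these means were 2.01, 1.23, 1.82 and 12.04 CPM. At 8 to 45 counts per member in water, depth limits the water levels and every ratio to them.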
